A study of Mus musculus with 10 samples.

Results

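The immediate early response genes described here are 10 genes taken by name, Fos, Fosb, Jun, Junb, Atf3, Egr1, Ier2, Myc, Cyr61 (also named Ccn1) and Dusp1, of the 29564 genes listed for the left ventricle. All 10 were found, and all 10 were among the 13296 genes tested, which were protein-coding, outside the mitochondrial genome and counted at least once in 9 of the 10 mice. Polyadenylated RNA was sequenced from whole left ventricle of 5 control mice, numbered TT-583 to TT-587, and 5 HFD+mTAC mice, numbered TT-588 to TT-592, all wild-type of strain C57BL6 in the labels and males of C57BL/6J in the methods. Vehicle is the labelled treatment of all 10 mice. The labelled protocol, a daily dose of 10 mL/kg over 6 to 9 weeks, names HFD+mTAC mice, and the schedule of the control mice was not given separately. HFD+mTAC mice had moderate transverse aortic constriction (mTAC), in which the aorta is narrowed so that the left ventricle works against a higher pressure, at 11 weeks of age, and were then fed a high-fat diet (HFD) with 60% of kilocalories from fat. Dosing of such mice began 16 weeks after induction. Control mice had no operation and were fed chow with 10% of kilocalories from fat, so that operation and diet cannot be told apart here. The time of day at which these hearts were taken was not found in the labels or the methods. Hearts taken 6 h after a single dose are also described for an RNA-seq set, without saying whether these mice belong to it.

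Immediate early genes are transcribed within minutes of a stimulus, without new protein synthesis, when kinase cascades activate transcription factors already bound at their promoters, mainly serum response factor with its ternary complex partners and CREB. Their transcripts are short-lived, in many cases through AU-rich elements in the 3′ UTR. Fos, Fosb, Jun and Junb encode subunits of AP-1, a dimer of Jun proteins with each other or with a Fos protein, whereas Fos proteins need a partner of another family. Atf3 encodes a stress-induced factor of the same leucine zipper class, Egr1 a zinc finger factor, Myc a growth-promoting helix-loop-helix factor and Ier2 a small nuclear protein. Cyr61 encodes a secreted matricellular protein, and Dusp1 a phosphatase that inactivates MAP kinases. In the heart this programme is known as the first transcriptional response of cardiomyocytes to stretch, catecholamines and pressure, and also as a response of tissue to handling.

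The promoters of the 4 AP-1 genes are shown so that Fos, Fosb and Junb, which had lower values in HFD+mTAC mice at an unadjusted p under 0.05, can be read beside Jun, which had not, and that of Dusp1 because it holds the full cyclic AMP response element. Each run covers 250 bases before to 50 bases after the start site in the RefSeq promoter table (GRCm38.p6), 5′ to 3′ on the gene's strand, with capitals marking TGACG (the core of the cyclic AMP response element) on either strand, the full element TGACGTCA, which holds that core on both strands, and the TATA box TATAAA. The windows are chr12:85473640-85473939 on the plus strand for Fos, and on the minus strand chr7:19309996-19310295 for Fosb, chr8:84978699-84978998 for Junb, chr4:95052173-95052472 for Jun and chr17:26508423-26508722 for Dusp1.
Fos: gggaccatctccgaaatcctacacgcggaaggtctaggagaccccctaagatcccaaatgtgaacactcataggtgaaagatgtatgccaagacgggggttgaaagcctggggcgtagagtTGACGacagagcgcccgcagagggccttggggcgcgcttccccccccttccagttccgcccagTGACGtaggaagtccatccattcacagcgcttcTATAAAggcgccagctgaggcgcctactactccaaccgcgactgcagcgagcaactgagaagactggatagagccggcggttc
Fosb: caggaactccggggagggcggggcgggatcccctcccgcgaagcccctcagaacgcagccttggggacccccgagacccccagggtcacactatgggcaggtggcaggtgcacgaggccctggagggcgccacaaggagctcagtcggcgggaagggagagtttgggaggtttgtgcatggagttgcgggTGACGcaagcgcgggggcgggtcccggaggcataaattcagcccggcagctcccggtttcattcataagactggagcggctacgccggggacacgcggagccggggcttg
Junb: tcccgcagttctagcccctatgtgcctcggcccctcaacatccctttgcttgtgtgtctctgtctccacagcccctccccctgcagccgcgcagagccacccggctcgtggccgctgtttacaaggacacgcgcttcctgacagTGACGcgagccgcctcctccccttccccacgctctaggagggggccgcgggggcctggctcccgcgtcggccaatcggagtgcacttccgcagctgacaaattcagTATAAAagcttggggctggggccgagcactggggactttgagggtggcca
Jun: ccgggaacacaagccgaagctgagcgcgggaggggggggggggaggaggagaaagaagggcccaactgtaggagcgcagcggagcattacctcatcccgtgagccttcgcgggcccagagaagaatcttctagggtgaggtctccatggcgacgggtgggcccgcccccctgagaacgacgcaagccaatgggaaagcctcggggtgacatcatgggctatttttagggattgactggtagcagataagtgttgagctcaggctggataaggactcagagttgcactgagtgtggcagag
Dusp1: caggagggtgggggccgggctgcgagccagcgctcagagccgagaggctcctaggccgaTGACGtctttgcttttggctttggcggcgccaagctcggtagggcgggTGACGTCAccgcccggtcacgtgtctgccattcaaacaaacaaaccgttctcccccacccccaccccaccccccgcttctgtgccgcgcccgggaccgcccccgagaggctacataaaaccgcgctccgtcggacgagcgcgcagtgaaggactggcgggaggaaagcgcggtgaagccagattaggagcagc
Of the 10 members, 7 had an entry in that table (these 5, Atf3 and Cyr61). TGACG or its reverse complement was present in 6 of these 7 promoters, against 20.8% of the 32851 promoters in the table. The 7 windows held 57.0 to 68.3% G and C, against a median of 52.7% over the table. The share to be found at that composition was not computed. Counted from the start site, with -1 as the base just before it, the core began at -129 and -66 in Fos, at -60 in Fosb and at -106 in Junb. The full element was in the Dusp1 promoter alone of the 7, beginning at -143, and in 1.79% of all promoters. Jun was the one promoter of the 7 without an exact TGACG match. Near matches were not searched for, so that tgacatca in the Jun window is not marked. Atf3, Cyr61 and Dusp1 held a match too, though their unadjusted p in edgeR were 0.0837, 0.0974 and 0.509. Egr1, with the smallest p of the members, had no entry. A relation between motif and change was not tested. TATAAA was found in Fos, Junb and Cyr61 and in 13.6% of all promoters. It began at -33 in Fos and -25 in Cyr61, but at 1 in Junb, on the start site itself. The GENCODE start of Junb, 84978718, lies downstream of that site, so that positions in Junb hold for the RefSeq start only. No match to the CArG box (the serum response factor motif, in 1.63% of all promoters) or to the AP-1 site TGANTCA (in 7.81%) was found in these 7 windows, both strands searched, which says only that those letters are not within them.

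Most members were compact genes. Their gene spans in the GENCODE M21 annotation of GRCm38 had a median of 4609.5 bases, from 1522 bases in Ier2 (chromosome 8, 84661331 to 84662852) to 56539 bases in Dusp1 (chromosome 17, 26505590 to 26562128), against a median of 24651 bases over all genes tested. Of the 10 members, 7 spanned under 6000 bases, as did 13.6% of all genes tested, whereas the annotated spans of Atf3 (47744 bases) and Dusp1 exceeded the median. Both spans reach upstream of the start sites in the promoter table, whose windows are 191183284 to 191183583 for Atf3 and 26508423 to 26508722 for Dusp1. From those start sites both genes are shorter than the annotated span. The longest coding transcripts had a median of 3.5 exons against 9. Jun (chromosome 4, 95049034 to 95052222, minus strand) and Egr1 (chromosome 18, 34859823 to 34864984, plus strand) stand among these small genes, as does Fos (chromosome 12, 85473890 to 85477273, plus strand). The pentamer ATTTA, the unit of the AU-rich element, occurred at least once in the annotated 3′ UTR of 9 of 10 members, against 69.4% of the 13243 genes tested that had one. Its density was highest in Cyr61, with 5 copies in 690 bases, followed by Dusp1 with 4 copies in 690 bases and Fos with 4 in 815 bases. Ier2 had none in 755 bases, and Fosb had 1 in 2145 bases. The median density of the members was 3.68 per 1000 bases, against 1.28 over all genes.

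Total estimated counts ranged from 34.2 to 53.7 M per mouse, of which 12.7 to 21.1 M lay on tested genes. The mitochondrially encoded share of counts was 47.8 ± 3.57% (SD, n = 5) in the controls and 50.1 ± 2.37% in the HFD+mTAC group (two-sided exact permutation test, p = 0.246), and was lowest in control mice TT-583 and TT-584, at 43.8 and 44.0%. Cardiomyocyte markers stood at 16740 to 24300 TPM (a length-corrected level, scaled to a common total per mouse) in sum. All 7 of them were lower in HFD+mTAC mice, with none past the threshold and 2 with an unadjusted p under 0.05, and their summed level was 19140 to 24300 TPM in control mice against 16740 to 20320 TPM in the others (exact permutation test, p = 0.0238). Neutrophil markers summed to 2.68 to 7.01 TPM in control mice and 0.443 to 6.03 TPM in the HFD+mTAC group (exact permutation test, p = 0.0556). The fibroblast, endothelial and macrophage sums overlapped broadly, at 92.2 to 163, 175 to 348 and 19.2 to 39.3 TPM in control mice against 76.8 to 126, 190 to 354 and 22.9 to 29.0 TPM. All tested atrial (2), smooth muscle (4) and erythroid (5) markers were lower, none with an unadjusted p under 0.05, while no adipocyte marker was abundant enough to be tested. None of the markers in the table was at 0 in every mouse. The part of these shifts in the values below was not tested, and in tissue RNA fewer cells of a type and less RNA per cell cannot be told apart.

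Of the 10 immediate early genes, 8 were lower and 2 (Jun and Myc) higher in HFD+mTAC mice. No member passed an adjusted p of 0.05 in edgeR's quasi-likelihood test on counts, and the smallest adjusted p was 0.261, for Egr1. That threshold was passed by 0.0602% of all genes tested, 8 genes, and by 0.015% on the lower side. Egr1, Fosb, Junb and Fos had an unadjusted p under 0.05, all lower, 4 of 10, whereas 8.27% of all genes had such a p and 3.72% had one with a lower value. DESeq2, an alternative count test, called Egr1 (adjusted p = 0.0186) and Fosb (adjusted p = 0.0492), with 0.903% of all genes called. The median log2 fold change of the members was -0.47, against 0.0014 over all genes tested, of which 49.7% were lower. A log2 fold change under -0.5 was found in 5 members and in 4.39% of all genes. In no member were the groups separated, which occurred in 1.96% of all genes and in 0.887% with the HFD+mTAC mice lower.

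**Figure D1:**
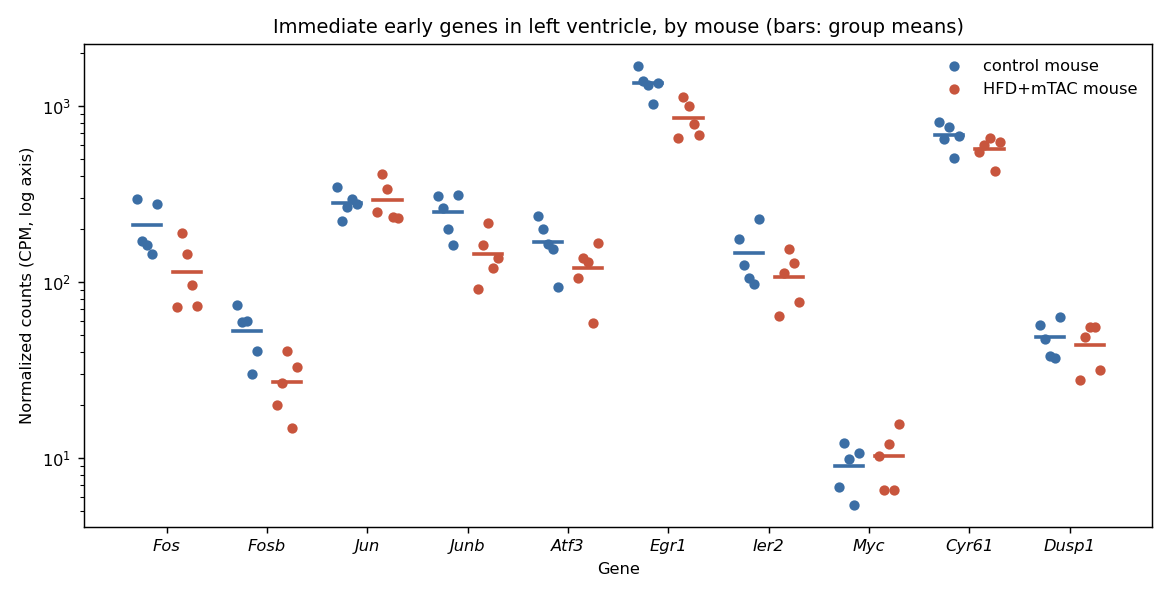
Normalised counts of the 10 immediate early genes in each mouse. The y axis gives CPM (counts scaled to the library size over tested genes, log axis), each point is 1 mouse (blue control, red HFD+mTAC) and bars are the group means. For Fos, Junb and Egr1, 4 of 5 HFD+mTAC mice lie below the lowest control mouse, whereas the groups of Jun and Myc lie over each other. The margin is narrow for TT-590 in Fos and for TT-589 in Junb.

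Fos and Fosb encode the partners that AP-1 needs to form a Fos-Jun dimer. Fos stood at 298, 172, 163, 144 and 277 CPM in the control mice, in the order of their numbers, and at 71.8, 189, 144, 96.0 and 72.8 CPM in the HFD+mTAC mice in theirs. Of the latter, 4 lay below every control mouse, and TT-589 lay above 3 control mice. For TT-590 the margin was narrow, at 143.9 CPM against 144.5 CPM in control mouse TT-586. The means were 211 ± 71.0 CPM (SD, n = 5) and 115 ± 50.8 CPM, a log2 fold change of -0.88 with a standard error of 0.29 (edgeR, adjusted p = 0.409; two-sided exact permutation test of the single gene, p = 0.0476). Fosb, from the gene on chromosome 7 (19302696 to 19310051, minus strand), stood at 74.3, 59.6, 60.4, 29.9 and 40.7 CPM in the control mice and at 20.1, 26.6, 40.8, 14.8 and 33.1 CPM in the HFD+mTAC mice. The control values fell into a higher set of TT-583, TT-584 and TT-585 and a lower pair that overlapped the other group. Its means of 53.0 ± 17.6 and 27.1 ± 10.3 CPM gave a log2 fold change of -0.97, SE 0.28 (edgeR, adjusted p = 0.320; exact permutation test, p = 0.0397), the lowest of the 10.

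Jun and Junb encode Jun subunits, of which JunB is the weaker activator. Junb (chromosome 8, 84974484 to 84978718, minus strand) stood at 309, 265, 200, 164 and 314 CPM in control mice, and at 91.2, 162, 216, 120 and 136 CPM in HFD+mTAC mice. TT-590 was the one HFD+mTAC mouse within the control range. The means were 250 ± 66.6 and 145 ± 47.2 CPM, with a log2 fold change of -0.79, SE 0.23 (edgeR, adjusted p = 0.332; exact permutation test, p = 0.0317). Jun stood at 348, 221, 269, 297 and 278 CPM in control mice, and at 252, 413, 339, 235 and 232 CPM in HFD+mTAC mice. Its highest value came from TT-589, and no HFD+mTAC mouse fell below the control range. The means of 282 ± 45.8 and 294 ± 79.5 CPM differed by 0.06 on the log2 scale, SE 0.17 (edgeR, adjusted p = 0.958), with an approximate 95% interval of -0.27 to 0.39. The sign for Jun turned without control mouse TT-584 (log2 fold change -0.02) and without HFD+mTAC mouse TT-589 (-0.10).

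Atf3 (chromosome 1, 191170296 to 191218039, minus strand), whose protein forms repressing homodimers and dimers with Jun, stood at 238, 201, 164, 154 and 93.3 CPM in control mice, and at 105, 137, 131, 58.8 and 167 CPM in HFD+mTAC mice. The groups overlapped, with 1 HFD+mTAC mouse (TT-591) below the control range. The log2 fold change was -0.51, SE 0.27 (edgeR, adjusted p = 0.670), with a 95% interval of -1.04 to 0.02. It was -0.33 with the transcript length offset, -0.34 without TT-591 and -0.20 when control mice TT-583 and TT-584, those with the lowest mitochondrial share, were both left out.

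Egr1, a target of serum response factor and an activator of growth factor and matrix genes, had the highest normalised count of the 10. It stood at 1693, 1389, 1317, 1027 and 1357 CPM in control mice, and at 659, 1130, 1004, 788 and 684 CPM in HFD+mTAC mice. TT-589 was the one HFD+mTAC mouse above the lowest control mouse, TT-586. The means were 1357 ± 237 and 853 ± 206 CPM, a log2 fold change of -0.67, SE 0.17, with a 95% interval of -0.996 to -0.343 (edgeR, adjusted p = 0.261; exact permutation test, p = 0.0159). By unadjusted p (0.00156) it ranked 79 among the 13296 genes. Ier2 ranged from 97.5 to 227 CPM in control mice (median 125 CPM) and from 64.2 to 154 CPM in HFD+mTAC mice (median 113 CPM). Its log2 fold change was -0.44, SE 0.27 (edgeR, adjusted p = 0.720), and 2 HFD+mTAC mice lay below the control range. Without control mouse TT-587, the highest for Ier2, it was -0.23. Myc (chromosome 15, 61985391 to 61990374, plus strand) was the least abundant in CPM, from 5.43 to 12.2 in control mice and from 6.59 to 15.6 in HFD+mTAC mice. Its log2 fold change was 0.18, SE 0.28 (edgeR, adjusted p = 0.920), with a 95% interval of -0.36 to 0.72, and it was -0.03 without HFD+mTAC mouse TT-592.

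Cyr61 and Dusp1 are products of the response that act outside the nucleus or feed back on it. Cyr61 (chromosome 3, 145646976 to 145649981, minus strand) stood at 811, 654, 763, 511 and 675 CPM in control mice, and at 550.3, 604, 663, 429 and 626 CPM in HFD+mTAC mice. TT-591 lay below the control range and 3 control mice lay above every HFD+mTAC mouse, with the other mice overlapping. The log2 fold change was -0.25, SE 0.14 (edgeR, adjusted p = 0.693), with a 95% interval of -0.52 to 0.02, and it was -0.16 without TT-591. Dusp1 ranged from 36.9 to 63.1 CPM in control mice and from 27.7 to 55.9 CPM in HFD+mTAC mice. Its log2 fold change was -0.15, SE 0.22 (edgeR, adjusted p = 0.918), with a 95% interval of -0.57 to 0.28, which holds both no difference and a value as low as the median of the members. Over the mice left out in turn it ran from -0.25 without TT-591 to -0.02 without TT-588.

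**Figure D2:**
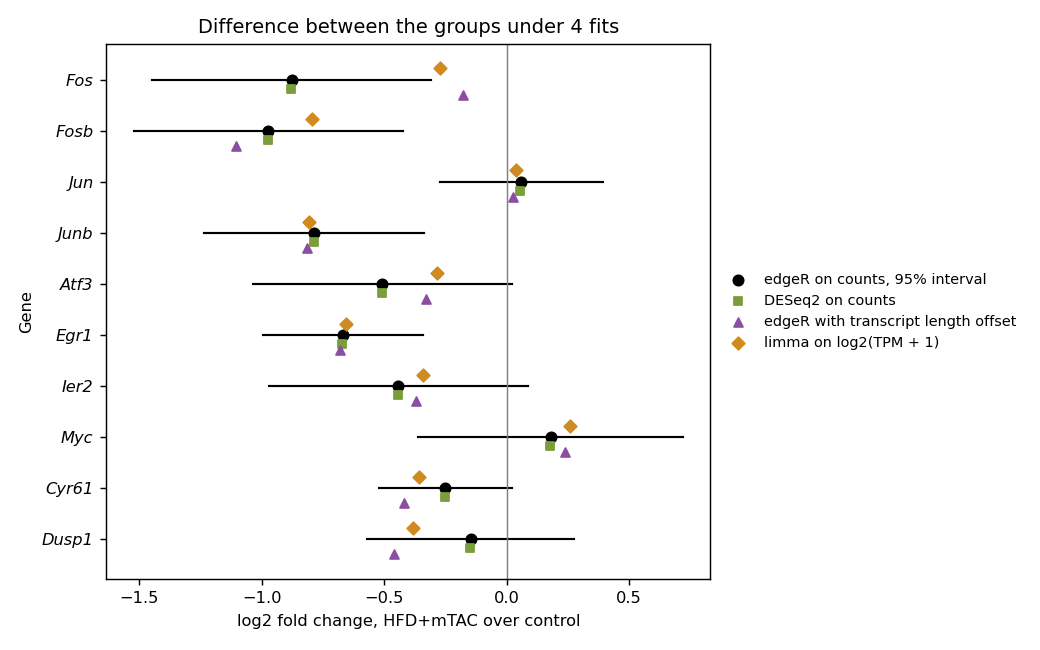
Log2 fold change of each immediate early gene, HFD+mTAC over control (x axis), under 4 fits. Black points with lines are edgeR on counts with approximate 95% intervals (n = 5 mice per group), green squares DESeq2, purple triangles edgeR with transcript lengths as an offset and orange diamonds limma on log2(TPM + 1). The fits lie close together for Junb, Egr1 and Jun, whereas for Fos the count fits lie near -0.88 and the length-corrected fits at -0.18 and -0.27.

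Fos was the member whose difference depended most on transcript length. The deposited average effective length of its transcripts was 1549, 841, 1287, 818 and 1710 bases in the control mice and 674, 713, 857, 858 and 876 bases in the HFD+mTAC mice, where the longest annotated coding transcript has 2108 bases. Control mice TT-583, TT-585 and TT-587 thus had longer average lengths than all other mice, and TT-584 and TT-586 lay among the HFD+mTAC mice. The group means were 1241 and 795 bases (exact permutation test, p = 0.0794). TPM divides by this length and, unlike CPM here, is scaled to a total that includes mitochondrial transcripts. In TPM, Fos stood at 27.1 ± 7.68 in control mice and 20.6 ± 8.33 in the HFD+mTAC group (exact permutation test, p = 0.183). With the lengths as an offset in edgeR, scaled over tested genes only, its log2 fold change was -0.18 (adjusted p = 0.909). Fosb, Junb and Egr1 changed little by this step, with log2 fold changes of -1.10, -0.81 and -0.68. Their TPM means were 0.774 ± 0.398 against 0.321 ± 0.134 for Fosb (exact permutation test, p = 0.0397), 22.6 ± 8.29 against 11.4 ± 4.06 for Junb (p = 0.0397) and 37.5 ± 13.4 against 20.5 ± 3.74 for Egr1 (p = 0.0238). For Cyr61 and Dusp1 the length offset gave log2 fold changes of -0.42 and -0.46, lower than on counts (in TPM, exact permutation test, p = 0.0952 and 0.103). Whether the shorter average length of Fos reflects a different mix of its annotated transcripts or the estimation from reads was not tested.

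Between genes, levels were compared per length, in TPM averaged over the 10 mice. Cyr61 (29.8 TPM) and Egr1 (29.0 TPM) were highest, followed by Fos (23.8), Atf3 (21.5), Junb (17.0), Ier2 (16.9) and Jun (11.1), with Dusp1 (3.18), Myc (1.52) and Fosb (0.548) well below. The order was not the same within each group. In control mice Egr1 (37.5 TPM) was above Cyr61 (35.5 TPM), and in HFD+mTAC mice Fos (20.6 TPM) was level with Egr1 (20.5 TPM) and Ier2 (13.9 TPM) was above Junb (11.4 TPM). Neighbours in the 10-mouse order overlapped in their range over mice, from Cyr61 (18.1 to 51.9 TPM) and Egr1 (16.7 to 54.8 TPM) down to Ier2 (8.50 to 27.8 TPM) and Jun (8.20 to 17.3 TPM). Jun and Dusp1 (1.80 to 5.26 TPM) did not overlap, so that the 10 genes fell into 7 of higher and 3 of lower level. The rank of Fosb rests on deposited effective lengths of 9976 to 13660 bases, well above its longest annotated coding transcript of 3782 bases, so that its TPM is low for its count. Lengths above the annotated one were also deposited in every mouse for Egr1 (5281 to 6894 against 4484 bases), Cyr61 (2719 to 3746 against 2019 bases) and Jun (3487 to 4427 against 3189 bases).

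Since Jun showed no clear difference, Fos, Fosb and Junb were also expressed relative to Jun in the same mouse. This ratio was chosen after the values were seen and is given without a test. In counts, Fos over Jun was 0.857, 0.778, 0.605, 0.487 and 0.996 in the control mice and 0.285, 0.457, 0.424, 0.408 and 0.314 in the HFD+mTAC mice. All 5 HFD+mTAC mice lay below the lowest control mouse, the means being 0.745 ± 0.202 and 0.378 ± 0.0744. The margin was narrow, with 0.457 in TT-589, the mouse with the highest Jun, against 0.487 in TT-586. The share of all genes whose ratio to Jun separates the groups was not computed. The ratio of Fosb was 0.191 ± 0.0670 against 0.0939 ± 0.0356, and that of Junb 0.903 ± 0.268 against 0.498 ± 0.119, each with 3 HFD+mTAC mice below the control range. In TPM, Fos over Jun overlapped between the groups, at 2.39 ± 0.600 and 1.92 ± 0.447 with 2 HFD+mTAC mice below the control range, whereas the means of Fosb over Jun (0.0645 ± 0.0233 and 0.0308 ± 0.0131) and Junb over Jun (1.96 ± 0.568 and 1.11 ± 0.418) differed by a like factor in both units.

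**Figure D3:**
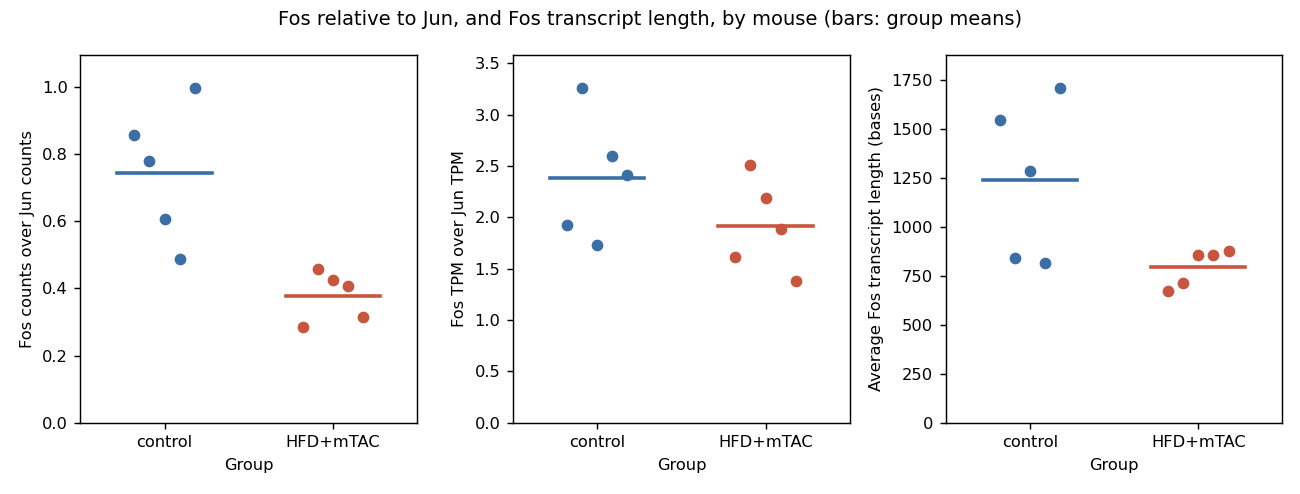
Fos relative to Jun in each mouse. The left panel gives the ratio of counts, the middle panel the ratio of TPM and the right panel the average effective length of Fos transcripts in bases. Points are mice (blue control, red HFD+mTAC) and bars group means, with 0.745 against 0.378 in counts and 2.39 against 1.92 in TPM. The groups are narrowly apart in counts and overlap in TPM. The Fos length is 1287 bases or more in 3 control mice and at most 876 bases in all HFD+mTAC mice.

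Immediate early genes varied more between mice of a group than most genes of like level. The edgeR dispersion, a measure of variance between mice beyond counting, had a median of 0.0779 in the members and 0.0292 over all genes tested. Relative to the trend for genes of the same level, all 10 members were above the 75th percentile, with a median of 2.47 times the trend. Fos was at the 97.8th percentile, Ier2 and Atf3 at the 97.4th and Fosb at the 97.1st, whereas Cyr61 was at the 76.3rd. The corresponding biological coefficient of variation was 31.95% for Fos, 19.8% for Jun, 19.2% for Egr1 and 16.6% for Cyr61. The within-group SD of log2(CPM + 1) was above the 90th percentile of all genes in 6 members. With this spread the standard errors of the log2 fold changes ran from 0.14 for Cyr61 to 0.29 for Fos.

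**Figure D4:**
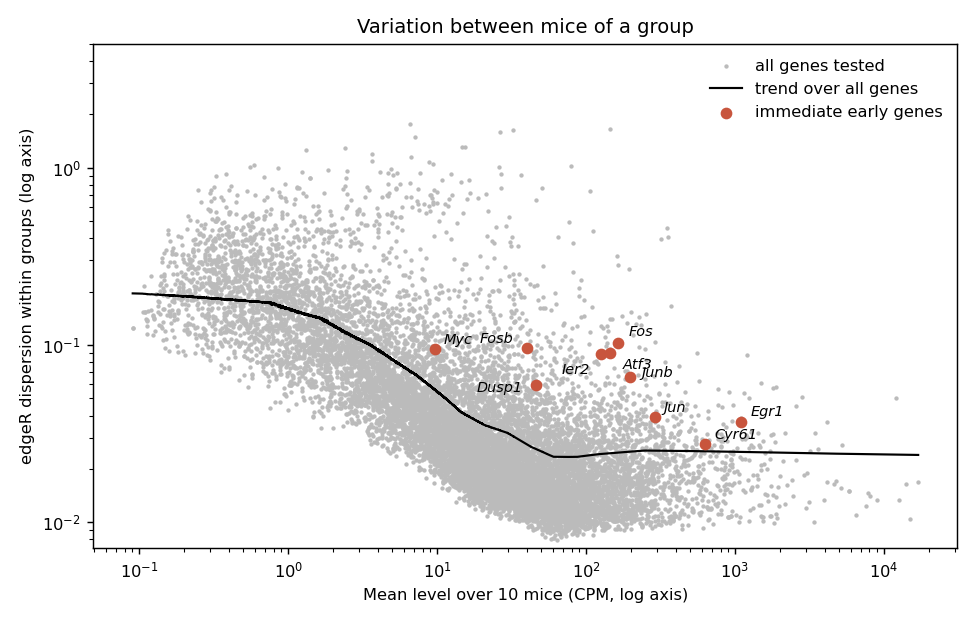
Dispersion within groups against mean level of all genes tested. The x axis is mean CPM over 10 mice and the y axis the edgeR dispersion, both on log axes, with grey points for all genes tested, the black line for the trend over all genes and red points for the 10 immediate early genes. All 10 lie above the line, from Fos at 4.13 times the trend to Cyr61 close to it.

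The members did not follow group alone. Control mouse TT-583 was the highest of the 10 mice for 5 members and control mouse TT-587 for 3, whereas HFD+mTAC mouse TT-588 was lowest for 5 and TT-591 for 3. The mean log2 deviation of the members from the 10-mouse mean was 0.55, 0.27, 0.15, -0.17 and 0.34 in the control mice and -0.56, 0.00, 0.16, -0.48 and -0.25 in the HFD+mTAC mice. Control mouse TT-586 thus lay below HFD+mTAC mice TT-589 and TT-590, and the groups overlapped. The mouse with the highest level, TT-583, was also the one with the lowest mitochondrial share. With TT-583 and TT-584 both left out, the median log2 fold change of the members was -0.31, and without TT-583 alone it was -0.36.

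**Figure D5:**
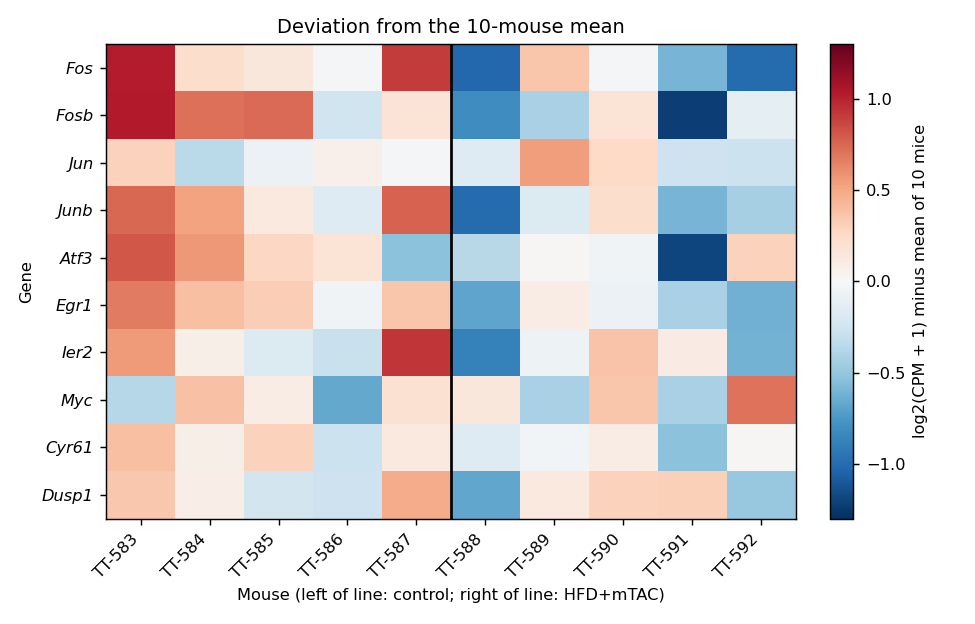
Deviation of each immediate early gene from its mean over 10 mice. Columns are mice, control to the left of the black line and HFD+mTAC to the right, rows are genes, and colour gives log2(CPM + 1) minus the 10-mouse mean (red above, blue below). TT-583 is above the mean for 9 of 10 genes and TT-588 for 1. Fos and Egr1 are both above their means in TT-583, TT-584, TT-585, TT-587 and HFD+mTAC mouse TT-589. Both are below in TT-588, TT-591 and TT-592, and slightly below in control mouse TT-586 and in TT-590.

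Across the 10 mice, Egr1 and Junb had the highest correlations with Fos by r, by rho and without the 2 extreme mice (log2(CPM + 1), 9 relations, permutation tests with Benjamini-Hochberg adjustment). Egr1 had a Pearson r of 0.95 (p = 5e-05, adjusted p = 0.00045) and a Spearman rho of 0.939 (p = 0.00031, adjusted p = 0.00279), and r was 0.886 without TT-588 and TT-592, the mice farthest from the median of Fos. Junb had r = 0.898 (permutation p = 0.00067, adjusted p = 0.00301) and rho = 0.818 (p = 0.00589, adjusted p = 0.0265), with r = 0.857 without those mice. For Ier2, r was 0.827 (permutation p = 0.00372, adjusted p = 0.0112) and rho 0.685 (p = 0.0347, adjusted p = 0.0780), with r = 0.619 without them. Dusp1 had r = 0.726 (permutation p = 0.0194, adjusted p = 0.0436) and rho = 0.685 (p = 0.0346, adjusted p = 0.0780), but r fell to 0.342 without the same mice, so that this relation rests on them. Fosb, Cyr61, Jun, Atf3 and Myc did not pass the adjusted threshold, with r from -0.299 for Myc to 0.665 for Fosb. Without TT-588 and TT-592, r was 0.766 for Cyr61 and 0.677 for Fosb, both above Ier2. After each group was centred on its own mean, as a description, r with Fos was 0.915 for Egr1, 0.810 for Ier2, 0.805 for Dusp1, 0.801 for Junb and 0.793 for Jun, but 0.352 for Fosb and 0.0483 for Atf3. Of the 45 pairs of members, 38 had a positive centred r (median 0.431), the highest for Ier2 with Dusp1 (0.967) and Fosb with Cyr61 (0.923), and the lowest for Jun with Myc (-0.493). All these values share the same libraries and scaling. They also rest on counts not corrected for transcript length, and the average effective length of Fos ran from 673.5 to 1710 bases over the mice. Whether the correlations with Fos hold after length correction was not tested.

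Among 10090 other genes with a mean of at least 5 CPM, the 8 whose centred values were most like the mean of the members over the 10 mice were Riok2 (r = 0.908), Commd3 (0.901), Puf60 (0.888), Acad8 (0.881), Chchd5 (0.873), Tor2a (0.871), Btg2 (0.871) and Rmdn1 (0.870). One of them, Btg2, is itself a rapidly induced gene, an antiproliferative cofactor of mRNA deadenylation. It stood at 582 ± 91.2 CPM in control mice and 405 ± 93.9 CPM in the HFD+mTAC mice, with a log2 fold change of -0.52, SE 0.15 (edgeR, adjusted p = 0.335). The log2 fold changes of the other 7 lay between -0.14 (Acad8) and 0.44 (Puf60), 5 of them below 0 and 2 above, each with an unadjusted p over 0.05. The highest of so many values is high over 10 mice by selection alone, and no test was made.

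Other immediate early genes were read from a separate list of 52 genes, of which 49 were tested. None passed the adjusted threshold, the smallest adjusted p being 0.335. Of the 49, 12 were lower and 3 higher with an unadjusted p under 0.05. Over all genes tested, 3.72% were lower with such a p and 8.27% had one in either direction. In all, 27 were lower and 22 higher, with a median log2 fold change of -0.04. This list overlaps the later ones, and Fosl2, Dusp5, Dusp6 and Ctgf, named below, belong to it too. The smallest p-values belonged to Btg2, to Socs3, a feedback inhibitor of cytokine signalling (10.4 ± 3.06 against 5.96 ± 1.77 CPM, log2 fold change -0.80, SE 0.24, edgeR adjusted p = 0.352), and to Nr4a1, an orphan nuclear receptor (36.2 ± 7.52 against 20.4 ± 8.44 CPM, log2 fold change -0.82, SE 0.25, adjusted p = 0.357). In a list of Egr and Nr4a genes that also held Nab1 and Nab2, which belong to neither family, 6 of 7 genes tested were lower. Over all genes tested, 49.7% were lower. In this list 2 of the lower genes had an unadjusted p under 0.05. These 2, Nr4a1 and Nr4a2, are already among the 12 above. Egr2 (-0.14), Nr4a3 (-0.03) and Nab1 (-0.01) had small log2 fold changes, and Egr3 was higher (0.24). Nr4a2 stood at 32.3 ± 9.34 against 15.0 ± 10.7 CPM (log2 fold change -1.10, SE 0.41, edgeR adjusted p = 0.479), and Nab2, a corepressor of Egr1, had a log2 fold change of -0.27 (adjusted p = 0.693), and -0.85 with the transcript length offset.

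The partners with which AP-1 subunits pair showed no common direction. Of 17 AP-1 and ATF partners tested, 10 were higher and 7 lower, with a median log2 fold change of 0.03, and no gene passed the threshold. Fosl2, a Fos family member, had a log2 fold change of -0.75, SE 0.34 (187 ± 53.6 against 112 ± 65.6 CPM, edgeR adjusted p = 0.600), and -0.44 with TT-583 and TT-584 left out. Jdp2 and Mafg had values of 0.34 and 0.15, which were 0.54 and 0.60 with the transcript length offset. In the 10 dual-specificity phosphatases tested besides Dusp1, 6 were lower and 4 higher, and they went both ways within the ERK phosphatases, with Dusp5 at -0.59 (edgeR adjusted p = 0.514) and Dusp6 at 0.36 (49.5 ± 5.02 against 63.7 ± 12.9 CPM, adjusted p = 0.443), the latter at 0.23 without TT-589. Dusp22 had a log2 fold change of -0.82 (adjusted p = 0.467), and -0.48 with the transcript length offset. The 5 CCN family genes besides Cyr61 had a median of 0.13, with Wisp1 at 0.39, Ctgf, a matricellular gene induced by the same stimuli as Cyr61, at 0.20 and Nov at -0.13, none with an unadjusted p under 0.05. Single mice moved all of these, to 0.19 for Wisp1 without TT-589, -0.02 for Ctgf without TT-590 and 0.04 for Nov without TT-587.

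In the Myc network, 9 of 13 genes tested were higher and 4 lower, with a median log2 fold change of 0.08. Mlxip (0.23, SE 0.07, edgeR adjusted p = 0.376) was higher in every HFD+mTAC mouse than in any control mouse. The groups did not overlap, in either direction, in 1.96% of all genes tested. Mxd4, a Myc antagonist, was at 0.44 (edgeR adjusted p = 0.416) and at 1.38 with the transcript length offset, and Fbxw7, which marks Myc for degradation, was at -0.26. Of 40 tested genes upstream (serum response factor, CREB, MAP kinases and their cofactors), 19 were higher and 21 lower, with a median of 0.00. Mkl2, a cofactor of serum response factor, was at 0.30 (edgeR adjusted p = 0.465), Mapk11 at 0.31 and Crebbp at -0.40, and no gene of this list passed the threshold.

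Genes that report on load, time of day, glucocorticoids and heat shock were set beside the members. Of 10 cardiac load genes tested, 6 were lower and 4 higher. Nppb, which encodes B-type natriuretic peptide, stood at 486 ± 134 CPM in control mice and 330 ± 93.2 CPM in HFD+mTAC mice (log2 fold change -0.56, SE 0.22, edgeR adjusted p = 0.504), Rcan1, a calcineurin target, had a log2 fold change of -1.35, SE 0.38 (adjusted p = 0.299), and Acta1, the skeletal actin of the fetal programme, was at 1.13, SE 0.38 (adjusted p = 0.416). With TT-583 and TT-584 left out Nppb was at -0.29 and Rcan1 at -0.51, and without TT-590 Acta1 was at 0.61. Of 22 clock and glucocorticoid-responsive genes tested, 18 were higher and 4 lower, with a median log2 fold change of 0.28, against 0.0014 over all genes. Zbtb16 (1.00, SE 0.24, edgeR adjusted p = 0.249) and Tef (0.56, SE 0.19, adjusted p = 0.432) did not overlap between the groups, as was found in 1.96% of all genes tested. Per2 was at 0.75 (edgeR adjusted p = 0.443), and Zbtb16 was at 0.58 with limma on log2(TPM + 1). With TT-583 and TT-584 left out Tef was at 0.26 and Per2 at 0.42, and with the transcript length offset Tef was at 1.83. Of 11 heat shock genes, 10 were lower, with a median of -0.34. Among them Hspa1b, an inducible Hsp70 gene, stood at 83.6 ± 136 CPM in control mice and 18.3 ± 15.1 CPM in HFD+mTAC mice (log2 fold change -2.19, SE 0.90, edgeR adjusted p = 0.525), and its sign turned to 0.38 with TT-583 and TT-584 left out. Without TT-584 alone, Hspa1b was at -0.35. Dnaja1 was at -0.72 (edgeR adjusted p = 0.552), but at -0.29 without TT-584 and -0.06 without TT-583 and TT-584. Hspe1 was at -0.34 (adjusted p = 0.443) and at -0.17 without both. No gene of these lists passed the adjusted threshold in edgeR, whereas DESeq2 called Zbtb16 (adjusted p = 0.0113). Whether genes of these lists moved with the immediate early genes through a shared source was not tested.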

How the data were processed

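Left ventricular RNA of 5 control and 5 HFD+mTAC mice was analysed, grouped by the labels. A legend of the study gives 3 control mice without naming them, and all 5 labelled as control were used. Per the study's methods, libraries were quantified with Salmon (version 1.6.0 in the submitters' processing notes) on GENCODE transcripts and summed to genes. The authors deposited estimated counts without normalization (20.1% of values are not whole), TPM, and average effective transcript lengths per gene and mouse. All 10 mice had columns in each table.

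The rounded counts entered edgeR 4.0.16 in R 4.3.3 (TMM, quasi-likelihood test, no covariate, Benjamini-Hochberg over all 13296 genes, threshold 0.05). The common dispersion was 0.0422. Here CPM denotes counts scaled to the TMM-adjusted library size over tested genes, and log values carry a pseudocount of 1. Intervals are the estimate ± its SE times the normal quantile. Exact tests enumerated 252 arrangements, with a smallest possible p of 0.00794. Replicates are separate mice. Libraries of a group differed by a chi-square of at least 13.3 per degree of freedom, so that none was a copy of another.

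Biotypes and coordinates came from GENCODE M21 (GRCm38), older than the release the study names. Of 29564 genes, 27812 matched by symbol, 863 by another symbol and 889 not. Promoters came from the RefSeq table. Members and lists were chosen with earlier results of these data known. Beyond the members, the text names from each list the 3 genes with the smallest unadjusted p at a mean of 1 CPM or more, and the 8 genes most like the member mean.

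Alternatives were DESeq2 1.42.0, its size factors, upper-quartile scaling, limma 3.58.1 on log2(TPM + 1) or log2(TPM + 0.1), other filters and biotypes, the length offset, the robust fit and leaving out each mouse. The ratio to Jun and leaving out 2 control mice were added after the data were seen. The steps were tested on simulated data for 13224 genes with 5 mice per group. For this comparison, edgeR called 86 of 100 genes shifted by a log2 value of 1 and 22 of 100 shifted by 0.5, DESeq2 88 and 23, limma 73 and 7. Of 13024 unchanged genes they called 5, 25 and 6. Each simulated gene was drawn at the trend of dispersion, and only genes above a minimum mean count were shifted. The members had a median of 2.47 times that trend, so that these shares do not describe them.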

Additional observations from a re-analysis of the deposited data

How the results depend on the processing

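Of the 21 alternatives, 20 called no immediate early gene, and DESeq2 called 2, Egr1 and Fosb. Leaving out each mouse in turn called 0 to 0. The number of all genes called, 8 in the edgeR fit, was 120 with DESeq2, 1 with limma on log2(TPM + 1), 1 with limma on log2(TPM + 0.1), 1 with the transcript length offset, 4 with control mice TT-583 and TT-584 left out, and 1 to 9 over the mice left out in turn. The median log2 fold change of the members stayed below 0, from -0.57 to -0.36 over the mice left out and from -0.48 to -0.31 otherwise. The adjusted p ranged from 0.0186 to 0.780 for Egr1, 0.0492 to 0.881 for Fosb, 0.0567 to 0.839 for Junb and 0.264 to 0.909 for Fos. DESeq2 also called Zbtb16 (log2 fold change 0.994, adjusted p = 0.0113). Signs turned for genes near 0 when single mice were left out, with ranges of -0.1003 to 0.1453 for Jun (below 0 without TT-584 or TT-589), -0.02599 to 0.3154 for Myc (below 0 without TT-592), -0.02454 to 0.2939 for Ctgf, -0.1909 to 0.03706 for Nov, -0.08633 to 0.0047 for Commd3 and -0.08421 to 0.03068 for Riok2. With TT-583 and TT-584 both left out, Commd3 was at 0.02974, Riok2 at 0.02767 and Hspa1b at 0.3814. The cause was not tested. No paired analysis was possible because the groups share no replicate number. Detectability at the spread of these 10 genes was not tested.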
